A study of Homo sapiens with 46 samples.

Results

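The genes described here are MYC and its partners in the MAX network: MYC, MYCN, MAX, MXD1, MXD3, MXD4, MXI1, MNT and MLX. These 9 genes were chosen by symbol, with earlier results of these data known. They come from the 61228 genes listed for HCT116 cells and the 30160 listed for HEK293 cells. Their RNA was followed in 46 RNA sequencing libraries of human cell lines in which Ku, the dimer of Ku70 and Ku80 (also called Ku86) that binds broken DNA ends, was removed by 3 routes. In the first route, HCT116 colon carcinoma clones of the genotype Ku80-AID, in which Ku80 carries an auxin-inducible degron, received 100 µM indole-3-acetic acid (IAA) together with 0.5 µg/mL doxycycline. Their controls received DMSO. IAA and DMSO for 1 day gave 2 libraries each (clones 1 and 9). DMSO for 2 days and IAA for 2, 4 and 6 days gave 3 each (clones 1, 7 and 9). A CDK4/6 inhibitor, which holds cells before S phase, was given alone or with IAA for 2 days (2 libraries each, clones 1 and 9) and 4 days (3 each, clones 1, 7 and 9). Its compound and dose are not given in the labels. Clones 1, 13 and 15 of a further line were Ku80-AID and MAVS-/-, lacking the adaptor of cytosolic RNA sensing, and received DMSO or IAA for 4 days. In the second route, HCT116 cells of the genotype Ku86Flox/-:CreERT2, with 1 deleted and 1 floxed copy of the Ku80 gene, received 50 nM 4-hydroxytamoxifen (4OHT) or ethanol for 4 days. Cells of the genotype Ku86Flox/- without Cre received the same, and each of these 4 groups had 2 libraries. In the third route, HEK293 embryonic kidney cells lacking their own Ku70 and kept alive by doxycycline-inducible Ku70 (clones Sa11, SB and TI) were grown with 1 µg/mL doxycycline or without it for 8 days, with 3 libraries per group. Doxycycline was thus present in the Ku-depleted arm of the degron cells and absent from the Ku-depleted arm of HEK293. The 2-day DMSO libraries were the control for IAA at 2, 4 and 6 days and for the inhibitor alone at 2 and 4 days, so these comparisons share their controls, and time in culture differs between the arms at 4 and 6 days.

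MYC is a basic helix-loop-helix leucine zipper transcription factor that binds DNA as a dimer with MAX, at the E-box, and activates genes of ribosome assembly, nucleotide synthesis and metabolism. MYCN is its paralogue, known mainly from neural cells and neuroblastoma. MXD1, MXD3, MXD4, MXI1 and MNT also pair with MAX at E-boxes but bring SIN3 and histone deacetylases, and so repress. MLX is a MAX-like protein that pairs with MNT, with some MXD proteins and with the glucose sensors MondoA (MLXIP) and ChREBP (MLXIPL). In colon carcinoma cells such as HCT116, MYC is a target of the Wnt and beta-catenin pathway. The MYC protein is short-lived, and its activity is set by protein turnover as well as by the RNA measured here.

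Totals per library ran from 9.53 to 45.7 M (mega) counts in the degron cells, 13.05 to 17.6 M in the Ku86Flox/- cells and 19.6 to 28.5 M in HEK293. XRCC5, which encodes Ku80, stood at 256 and 258 CPM (counts scaled to a common library total) in the Cre cells with ethanol and at 24.9 and 30.7 CPM with 4OHT, and lay between 236 and 252 CPM in the cells without Cre. XRCC6, which encodes Ku70, ran from 2269 to 3529 CPM with doxycycline in HEK293 and from 339 to 605 CPM without it. The degron acts on the protein, so XRCC5 RNA is no check of it. Of 9 colon epithelial markers, 8 exceeded 1 TPM in at least 1 degron library, as did 5 of 7 HEK293 markers and 4 of 8 blood and stromal markers. Summed over each list, degron group means ran from 1496 to 2754, 5.11 to 9.33 and 8.09 to 64.9 TPM. The 8 degron libraries whose titles give the time in hours (all 1-day groups, and the 2-day groups with the inhibitor) stood apart from the other 24. They held 70 to 93 counts of LIN28B and 53 to 73 of NEFL, which are HEK293 markers with 2639 to 5980 and 2328 to 3233 counts in HEK293. In the other degron libraries NEFL stood at 0 to 2 counts, and LIN28B at 0 to 4 except for 1 library with 35 among those given IAA for 6 days. VIL1, a colon marker, held 39 to 116 counts in the hour-titled libraries and at most 3 in the other MAVS-proficient degron libraries. MYC did not differ between the 1-day and the 2-day DMSO libraries beyond its error (log2 -0.01 ± 0.26), but MAX was higher by 0.61 ± 0.15 and MXI1, MXD1 and MXD4 were lower, by -0.84 ± 0.16, -0.73 ± 0.24 and -0.65 ± 0.22 (edgeR adjusted p 0.00209, 0.000264, 0.0200 and 0.0197). Of all 18877 genes, 37.2% were called between these control groups. This difference bears on the inhibitor alone at 2 days, whose control was the 2-day DMSO group. With the inhibitor, 34.4% of genes were called against that group and 3.63% against 1-day DMSO. The part of the control difference in that result was not tested. At 1 day, and for IAA given with the inhibitor at 2 days, both arms come from these 8 libraries.

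The E-box of MYC and MXD dimers, CACGTG, reads the same on both strands. It is shown here because the promoters of the repressor genes that moved most differed in it. RefSeq promoter windows (GRCh38.p14, from 250 bases before a start site to 50 after it) were found for 8 of the 9 members, as 11 windows. MYC had no window, so its promoter was not searched. The start sites of the 2 MAX windows lie at neither end of the listed gene. CACGTG occurred in the windows of MXD4, MNT and MLX, against 7.26% of all 35116 windows. The looser form CANNTG, of which CACGTG is one case, occurred in 7 of the 11 member windows and in 68.7% of all windows. MXD1, which rose in most Ku-depleted groups, had no CACGTG in its window. Its 250 bases before the start (chr2:69914859-69915108, plus strand, just before the gene at chr2:69915109-69942945) hold 3 CANNTG matches, in capitals. The stretches of MXD4 (chr4:2262302-2262359, minus strand, with its match 238 bases before the start of the gene at chr4:2247432-2262109), MNT (chr17:2401208-2401293, minus strand, 193 bases before the start) and MLX (chr17:42567010-42567095, plus strand, 50 bases before the start) have CACGTG in capitals. A match is a description of the letters and no measure of binding.
MXD1: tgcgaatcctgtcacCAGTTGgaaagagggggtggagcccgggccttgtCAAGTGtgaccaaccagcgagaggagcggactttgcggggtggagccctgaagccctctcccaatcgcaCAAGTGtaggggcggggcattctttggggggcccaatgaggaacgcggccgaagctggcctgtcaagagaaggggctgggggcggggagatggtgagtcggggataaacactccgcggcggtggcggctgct
MXD4: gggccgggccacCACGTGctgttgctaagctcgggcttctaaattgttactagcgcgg
MNT: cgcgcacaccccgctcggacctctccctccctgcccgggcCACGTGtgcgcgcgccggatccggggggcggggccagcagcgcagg
MLX: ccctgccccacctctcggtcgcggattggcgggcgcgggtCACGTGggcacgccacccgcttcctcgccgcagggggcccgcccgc

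Levels between genes were compared as TPM, which is scaled to transcript length. In the 2-day DMSO degron cells MYC was the most abundant member, at 313 ± 15.01 TPM (SD, n = 3). MAX followed at 85.3 ± 3.10 and MXI1 at 84.1 ± 16.8, with overlapping libraries. MLX stood at 51.6 ± 3.88, MXD3 at 26.6 ± 4.48, and MNT and MXD4, again overlapping, at 14.9 ± 1.99 and 14.4 ± 2.42. MXD1 was the lowest repressor at 3.81 ± 0.54. The Ku86Flox/- cells without Cre, on ethanol, also had MYC first, at 302 ± 12.6 TPM (SD, n = 2), and then MAX at 72.7 ± 19.7. MLX at 47.4 ± 2.61 and MXI1 at 46.5 ± 4.36 overlapped, and MXD1 was last of the repressors at 3.82 ± 0.15. MXD3 kept no fixed place. In these cells, at 14.5 ± 2.12, it stood below MNT at 20.7 ± 0.65 and overlapped MXD4 at 15.5 ± 0.66. In the 1-day DMSO degron cells, at 8.92 ± 1.74 (n = 2), it overlapped MNT at 9.75 ± 0.46. In HEK293 on doxycycline, MAX (79.7 ± 10.5, n = 3) and MXI1 (78.7 ± 3.01) led with overlapping libraries, and MLX (48.7 ± 6.57) and MYC (45.4 ± 15.4) followed, also overlapping. MXD4 stood there at 23.1 ± 1.20, MNT at 16.8 ± 2.14, MXD3 at 11.5 ± 2.03 and MXD1 at 5.90 ± 0.20. MYC led the members in HCT116 and not in HEK293, though these tables were made separately from poly-A and ribosome-depleted RNA, and no test was made across them. MYCN had 0 counts in 38 of 40 HCT116 libraries and never more than 1, where 3 counts correspond to 0.0656 to 0.315 CPM, and 2 to 12 counts in HEK293. It passed no filter on low counts and was tested nowhere.

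The other 8 members were tested in all 3 sets of cells with edgeR's quasi-likelihood test. A member is said to rise or fall where its p, adjusted over all genes of the fit by Benjamini-Hochberg, was under 0.05. Log2 fold changes are given ± standard error. Beside each count stands the share of all genes of that fit that were called, in either direction and then higher and lower. IAA at 1 day changed 0 of 8 members, against 0.185% of 18877 genes (0.117% and 0.0689%). There 2 members had an unadjusted p under 0.05, DESeq2 called 1 and limma called 0. IAA raised 2 and lowered 1 at 2 days (19.1%, with 9.12% and 9.94%), raised 3 at 4 days (32.8%, with 17.9% and 14.9%), and raised 2 and lowered 1 at 6 days (35.2%, with 17.8% and 17.5%). IAA at 4 against 2 days changed 0 (8.17%, with 4.73% and 3.44%), with 4 at an unadjusted p under 0.05 and 1 each called by DESeq2 and limma. At 6 against 4 days 1 fell (12.5%, with 5.36% and 7.11%). The inhibitor alone raised 2 at 2 days (34.4%, with 20.8% and 13.6%) and 3 at 4 days (7.69%, with 3.85% and 3.84%). IAA given with it changed 0 at 2 days (0.413%, with 0.297% and 0.117%), where 2 had an unadjusted p under 0.05 and DESeq2 and limma called 0. At 4 days it raised 1 (11.2%, with 6.13% and 5.1%). IAA in the MAVS-/- clones raised 1 and lowered 1 (7.88%, with 4.73% and 3.15%). 4OHT with Cre raised 5 and lowered 1 (54% of 16726 genes, with 26.4% and 27.5%), and without Cre raised 1 and lowered 2 (13.7%, with 7.26% and 6.44%). The response differed with and without Cre for 7, higher for 6 and lower for 1 (41.2%, with 18.8% and 22.4%). Withdrawal of doxycycline in HEK293 raised 2 (22% of 15549 genes, with 11.1% and 10.9%). The counts at 4 and 6 days of IAA and in HEK293 were close to the share of all genes called, so the members as a group did not stand out there. What differed was which member moved. The only interaction with called members was that of Cre and 4OHT. There, rose and fell stand for a response higher or lower with Cre than without. Over all 18 comparisons, interactions included, MXD1 rose in 8 and fell in 0, MXD4 rose in 7 and fell in 0, and MAX rose in 6 and fell in 0. MXD3 fell in 3 and rose in 0. MYC and MNT were called in both directions, MYC 3 times each way and MNT 2 times each way. MXI1 rose in 2 and MLX was called in none, though single alternatives called it.

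**Figure D1:**
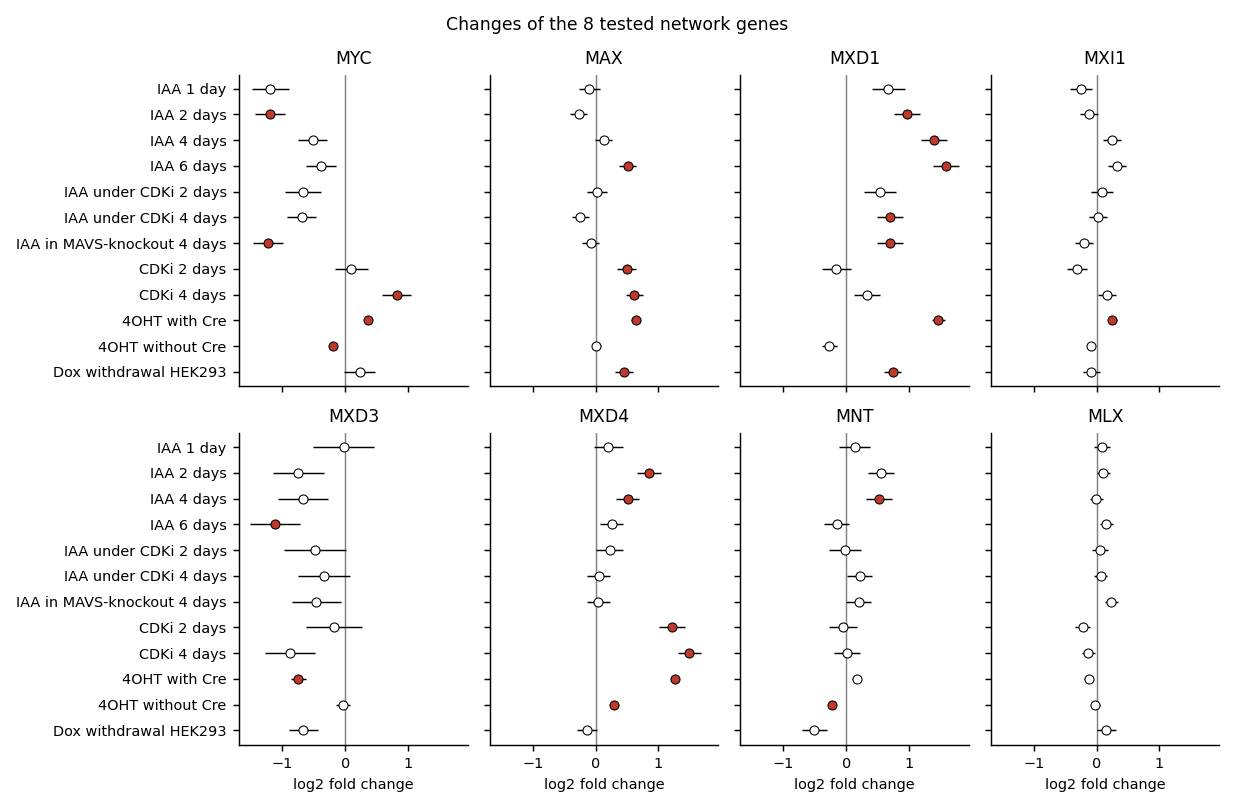
Log2 fold change of each tested member (points, ± standard error) in the 12 two-group comparisons, with red points at an edgeR adjusted p under 0.05. MYC lies below 0 in the degron comparisons with IAA and above 0 after 4OHT with Cre, while MXD1 lies above 0 in every comparison of Ku-depleted cells with their controls.

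MYC RNA was lower within 1 day of IAA and returned part of the way by 6 days. In the 1-day libraries MYC stood at 448 and 473 CPM with DMSO and at 187 and 217 CPM with IAA (clones 1 and 9). Both treated libraries lay below both controls. The log2 change was -1.19 ± 0.29, with an edgeR adjusted p of 0.0844. With the clone as a block the adjusted p was 0.000468, and over 10 alternatives it ran from 5.84e-11 to 1, with 4 of them under 0.05. At 2 days MYC stood at 445, 498 and 449 CPM with DMSO (clones 1, 7 and 9) and at 198, 215 and 195 CPM with IAA, a fall of -1.20 ± 0.24 (adjusted p = 0.000633). It was called in all 13 alternatives. At 4 days of IAA the libraries held 369, 306 and 296 CPM, and at 6 days 386, 359.9 and 321 CPM. All 6 lay below every DMSO library and above every 2-day IAA library. Against DMSO the changes were -0.52 ± 0.23 at 4 days (adjusted p = 0.0926, and 0.00256 with the clone block, in a range of 0.000391 to 0.208) and -0.38 ± 0.23 at 6 days (0.214, and 0.0200 with the block, in a range of 0.0137 to 0.388). Against 2 days of IAA, MYC at 4 days differed by 0.68 ± 0.24 (0.0744, and 0.00126 with the block, in a range of 1.71e-05 to 0.233). In bulk RNA, fewer cells of a kind and less RNA per cell cannot be told apart.

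The CDK4/6 inhibitor, which by itself slows the cycle, did not lower MYC RNA. After 2 days the libraries held 492 and 503 CPM (log2 0.10 ± 0.26 against 2-day DMSO, adjusted p = 0.809, and 0.11 ± 0.29 against 1-day DMSO, 0.949). After 4 days they held 751, 779 and 923 CPM. All 3 lay above every DMSO library, a rise of 0.82 ± 0.23 (adjusted p = 0.0298). Limma on log2(TPM + 1) gave 0.66 (0.0520), the degron fit without the hour-titled libraries gave 0.84 (0.0563), and neither passed. The call was also lost without any 1 of the 3 DMSO libraries (0.0682 to 0.106) and without clone 7 or 9 of the inhibitor group (0.0556 and 0.0975), and held without clone 1 (0.0478). IAA on top of the inhibitor gave 320.2 and 302 CPM at 2 days, below both libraries with the inhibitor alone (-0.68 ± 0.29, adjusted p = 0.479, and 0.0355 with the clone block, in a range of 0.00449 to 1). At 4 days it gave 497, 519.9 and 503 CPM, below all 3 (-0.69 ± 0.23, adjusted p = 0.0551, and 0.000626 with the block, in a range of 4.09e-06 to 0.151). The effect of IAA with the inhibitor did not differ detectably from that without it, by 0.52 ± 0.37 at 2 days and -0.17 ± 0.33 at 4 days (adjusted p 1.00 and 0.869). These intervals are wide, and neither interaction shows that the effects were equal. Of the 8 members, 0 had a called interaction at either time in edgeR, DESeq2 or limma, and 1 at each time had an unadjusted p under 0.05, against 0% of all genes at 2 days and 4.69% at 4 days (2.19% higher and 2.5% lower).

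Clones without MAVS also had less MYC RNA with IAA, and in proportion the fall was smaller in clone 13 than in clones 1 and 15. They held 269, 461 and 325 CPM with DMSO (clones 1, 13 and 15) and 88.2, 259 and 102 CPM with IAA. Each clone was lower with IAA, and clone 13 was highest in both arms. The fall was -1.23 ± 0.24 (adjusted p = 0.00153) and was not called in a fit on these 6 libraries alone (0.130). It became -1.89 without the IAA library of clone 13. That fit kept the DMSO library of clone 13, the highest control, and so broke the pairing. The 4-day fall differed from that in MAVS-proficient clones by -0.72 ± 0.33 (adjusted p = 0.241) and by -0.85 with the clone block (0.00456). Without the IAA library of clone 13, unpaired in the same way, the difference was -1.37 (0.000138). Of 19 alternatives 3 passed, and the adjusted p ran up to 0.518. The DMSO control in this interaction was of 4 days in the MAVS-/- clones and of 2 days in the others. For this interaction 0 of 8 members were called (4.85% of genes, with 2.46% higher and 2.39% lower), 3 had an unadjusted p under 0.05, and DESeq2 and limma called 0. The control groups differ too, in genotype, clones and days in DMSO (4 against 2), which cannot be told apart. MAVS-/- clones on DMSO had MXD4 higher than the 2-day DMSO libraries by 1.35 ± 0.19 and MXI1 and MLX lower by -0.40 ± 0.14 and -0.33 ± 0.10 (adjusted p 2.27e-06, 0.0226 and 0.0112), among 46.1% of all genes called. MAVS RNA itself ran from 108 to 184 CPM in these clones and from 262 to 459 CPM in the other degron libraries.

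Deletion of the Ku80 gene by Cre gave the opposite sign. MYC stood at 437 and 416 CPM with ethanol and at 547 and 547 CPM with 4OHT, a rise of 0.36 ± 0.05 (adjusted p = 2.04e-05), called in all 10 alternatives. Without Cre, 4OHT gave 467 and 459.8 CPM against 532 and 528 CPM with ethanol, a fall of -0.19 ± 0.05 (adjusted p = 0.0154). That fall was not called by limma on TPM (-0.04, 0.650), nor in a fit on these 4 libraries (0.0594), nor without either 4OHT library (-0.22, 0.0639, and -0.18, 0.105). The treated Cre libraries lay above all ethanol libraries of both genotypes. The difference between the responses was 0.55 ± 0.07 (adjusted p = 1.80e-05). The labels do not say that the 2 libraries of each Ku86Flox/- group were separate cultures, so these p-values cover no more than library-to-library spread and that spread could be technical. In HEK293, MYC stood at 74.7, 44.9 and 95.7 CPM with doxycycline (clones Sa11, SB and TI) and at 93.2, 92.4 and 66.9 CPM without it. The groups overlapped, clone TI went the other way from Sa11 and SB, and the change of 0.23 ± 0.25 was not called (adjusted p = 0.553).

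**Figure D2:**
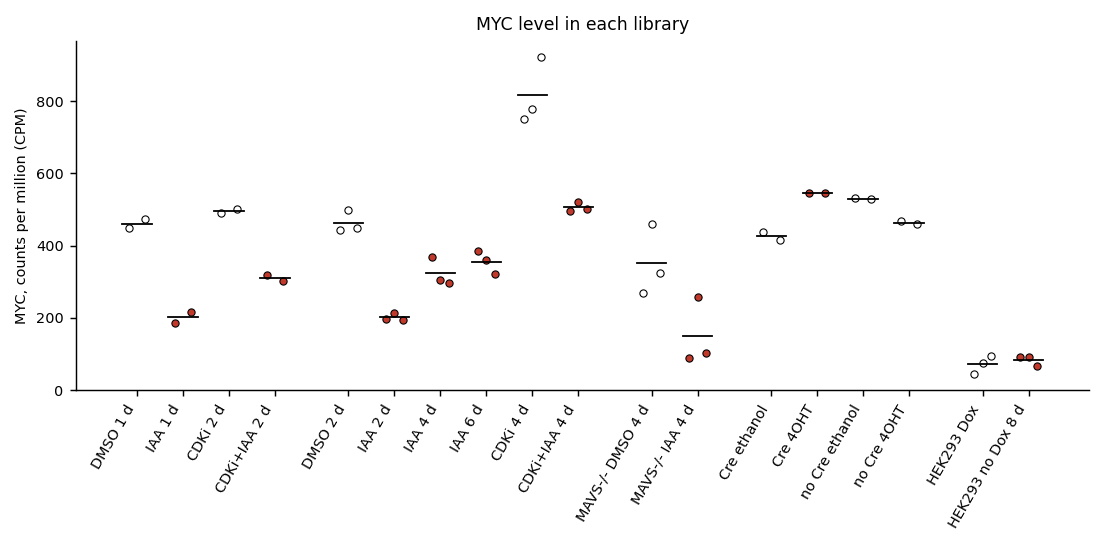
MYC level (CPM, linear axis from 0) in every library by group, with open circles for libraries without Ku removal, red for libraries with it, and a line at each group mean. IAA libraries of the degron clones sit below their controls at every time, the inhibitor libraries at 4 days sit highest, and the Cre libraries with 4OHT sit above those with ethanol.

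MAX, the partner that MYC and its antagonists share, was called in 6 comparisons, and rose on other days of IAA than MYC fell. All 6 calls were upward, and 1 of them was the difference between the responses with and without Cre. In the degron clones it stood at 63.2, 55.6 and 51.8 CPM with DMSO and at 46.8, 48.0 and 46.7 CPM after 2 days of IAA, where the change of -0.27 ± 0.14 was not called (adjusted p = 0.181). After 6 days it stood at 93.8, 72.0 and 77.0 CPM, a rise of 0.51 ± 0.13 (0.00369). All 3 lay above every DMSO library. On the deposited TPM scale the 6-day change was 0.07 (limma, 0.728), where it did not pass. From 4 to 6 days the difference was 0.38 (0.0567), which passed with the clone block (0.0495, in a range of 0.0266 to 0.554). The inhibitor alone gave 86.0, 80.4 and 94.8 CPM at 4 days, a rise of 0.61 ± 0.13 (0.00461), with 0.18 on the TPM scale (0.382). At 2 days of inhibitor, 76.6 and 83.5 CPM were 0.49 ± 0.15 above 2-day DMSO (0.0110) but -0.11 ± 0.16 from 1-day DMSO (90.7 and 82.3 CPM, 0.873). That rise was lost without either inhibitor library (0.0819 and 0.213) and without clone 9 of the DMSO group (0.118). With Cre, 4OHT raised MAX from 52.8 and 48.8 to 76.3 and 81.9 CPM, by 0.64 ± 0.07 (5.56e-06), and without Cre MAX stood at 44.8 to 47.1 CPM with ethanol and 44.3 to 48.2 CPM with 4OHT. The responses differed by 0.62 ± 0.10 (0.000309). In HEK293 each clone had more MAX after withdrawal of doxycycline, 57.7, 47.0 and 63.0 CPM becoming 79.9, 66.7 and 82.0 CPM. The rise of 0.45 ± 0.14 sat at the threshold (adjusted p = 0.0494). It was lost with RLE factors (0.0577), without the count filter (0.0525) and in 5 of 6 fits without 1 library (0.0740 to 0.170, the exception leaving out clone SB without doxycycline), and passed with the clone block (0.00615).

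MXD1, a repressor whose RNA rises as many cell types stop dividing and mature, was higher after Ku removal by all 3 routes. It stood at 13.6, 12.3 and 10.0 CPM with DMSO at 2 days. IAA gave 27.1, 20.7 and 22.4 CPM at 2 days, 24.8, 27.3 and 43.2 CPM at 4 days, and 40.7, 31.2 and 35.6 CPM at 6 days. No IAA library of these days overlapped the controls. The rises were 0.97 ± 0.21, 1.40 ± 0.21 and 1.58 ± 0.21 (adjusted p 0.00121, 6.20e-06 and 1.02e-06) and were called in all 13 alternatives at each day. At 1 day, 7.15 and 7.32 CPM with DMSO stood against 10.1 and 12.9 CPM with IAA, without overlap (0.67 ± 0.26, adjusted p = 0.467, with 1 of 10 alternatives under 0.05). The inhibitor alone left MXD1 at 17.8, 11.9 and 15.4 CPM at 4 days, overlapping DMSO (0.33 ± 0.21, 0.389). IAA on top of it gave 27.2, 20.7 and 25.3 CPM, a rise of 0.70 ± 0.20 (0.0232). That call was lost without 4 of the 6 libraries, namely clones 1 and 9 with both compounds and clones 7 and 9 with the inhibitor alone (0.0616 to 0.138). In the MAVS-/- clones 8.53, 8.49 and 9.86 CPM became 11.7, 18.8 and 13.1 CPM, a rise of 0.70 ± 0.21 (0.0363). It was lost by limma (0.0522), in the fit on these libraries alone (0.0917), without the hour-titled libraries (0.0587), and without any of the 3 DMSO libraries or the IAA library of clone 13 (0.0627 to 0.224).

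MXD1 was also higher with 4OHT in the Cre cells and after doxycycline withdrawal in HEK293, where loss of Ku70 and of doxycycline cannot be told apart. With Cre it rose from 9.19 and 8.17 to 23.3 and 24.7 CPM, by 1.47 ± 0.11 (8.59e-08). Without Cre it stood at 11.8 and 11.9 CPM with ethanol and at 9.09 and 10.6 CPM with 4OHT (-0.27 ± 0.11, 0.140). The responses differed by 1.73 ± 0.16 (1.55e-06), the largest difference among the members. In HEK293, 16.3, 15.8 and 16.7 CPM with doxycycline became 25.7, 29.7 and 26.2 CPM without it, a rise of 0.74 ± 0.14 (0.00677) in all 3 clones. Both this rise and that with Cre were called in all of their alternatives, 11 and 10.

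MXD4, a repressor of the same family, rose early with IAA and with the inhibitor. It stood at 32.4, 28.5 and 33.4 CPM with DMSO and at 55.5, 50.4 and 64.2 CPM after 2 days of IAA, a rise of 0.85 ± 0.19 (0.00154) called in all 13 alternatives. At 4 days 53.1, 40.9 and 40.3 CPM still lay above every control (0.51 ± 0.18, 0.0339). That call was lost by limma (0.34, 0.398), on the compared groups alone (0.0594) and without clone 1 or 7 of DMSO or clone 1 of IAA (0.0627, 0.126 and 0.136). At 6 days 39.4, 44.5 and 28.5 CPM overlapped DMSO (0.25 ± 0.18, 0.307). The inhibitor alone gave 77.2, 79.7 and 108 CPM at 4 days, a rise of 1.49 ± 0.19 (1.08e-05), also called in all 13 alternatives. At 2 days it gave 68.0 and 77.7 CPM, a rise of 1.21 ± 0.20 over 2-day DMSO (4.39e-05) and of 1.86 ± 0.23 over 1-day DMSO, at 16.6 and 23.7 CPM (3.48e-05). Limma on TPM did not call the former (0.164). MXD4 was the only member to differ between 2 days of inhibitor and 1-day DMSO, where 3.63% of genes were called. IAA on top of the inhibitor left it at 101, 90.0 and 83.1 CPM at 4 days, overlapping the inhibitor alone. The MAVS-/- clones began high, at 87.1, 67.3 and 86.1 CPM, and with IAA held 101, 63.6 and 83.0 CPM, which overlapped. With Cre, 4OHT raised MXD4 from 46.5 and 45.4 to 113 and 109 CPM, by 1.27 ± 0.06 (2.35e-09). Without Cre it also rose, from 46.9 and 51.0 to 60.8 and 58.5 CPM, by 0.29 ± 0.07 (0.0125), a call lost without the first library of either arm (0.0649 and 0.134). The responses differed by 0.98 ± 0.09 (2.00e-06). In HEK293 MXD4 stood at 21.8 to 26.4 CPM with doxycycline and 18.4 to 24.2 CPM without it, and was not called (-0.14 ± 0.16, 0.567).

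**Figure D3:**
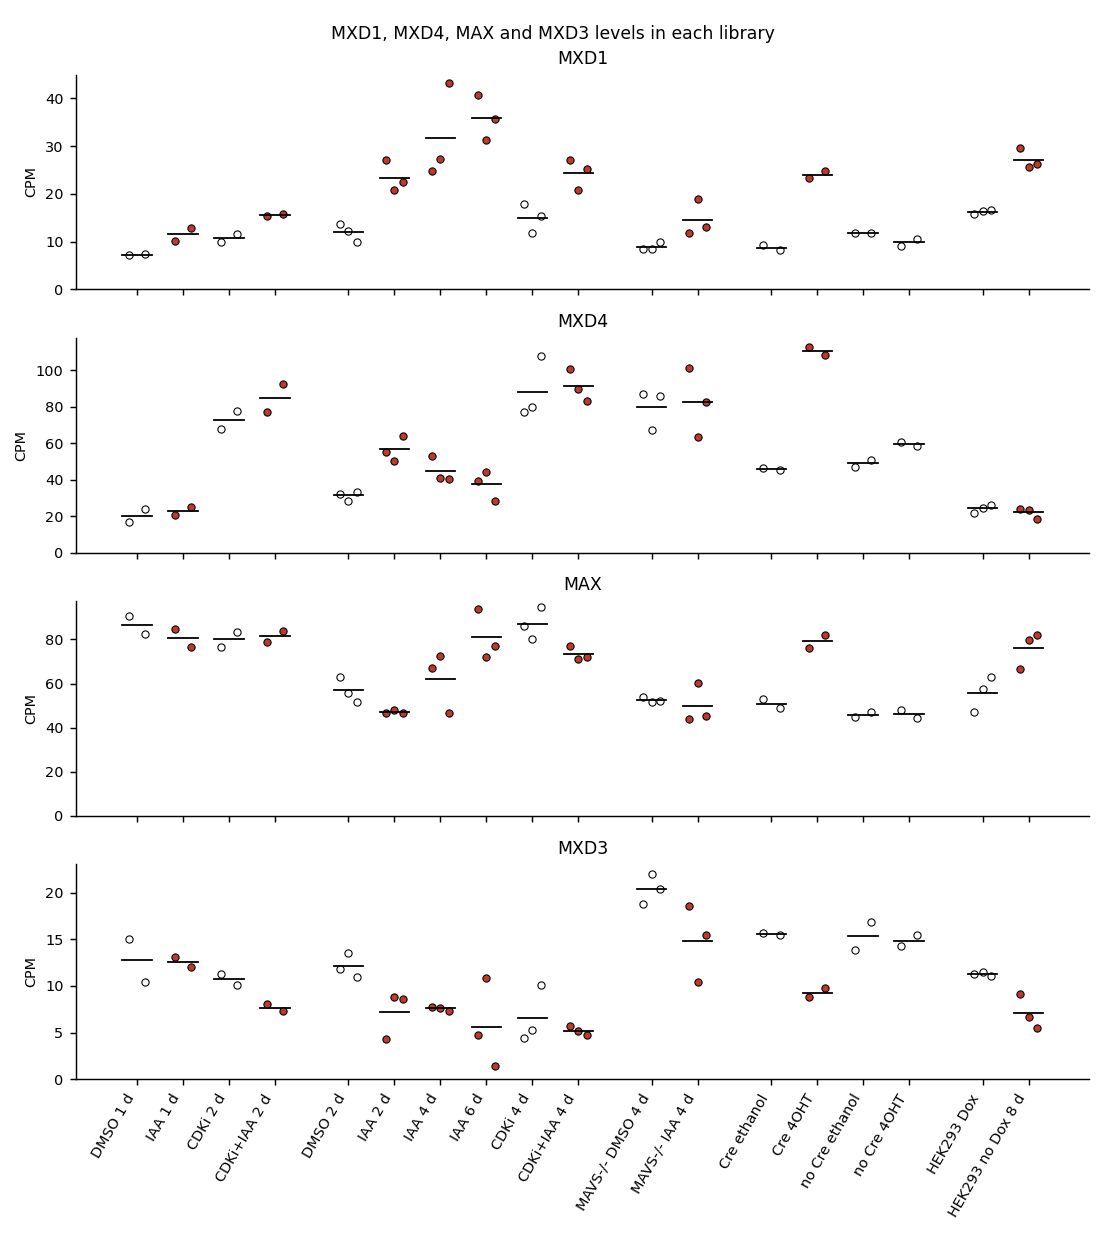
Level (CPM, linear axes from 0) of MAX, MXD1, MXD3 and MXD4 in every library by group, with open circles for libraries without Ku removal, red for libraries with it, and a line at each group mean. MXD1 libraries with Ku removed sit above their controls in every pair of groups, while MXD4 is high with the inhibitor, in the MAVS-/- clones and after 4OHT with Cre.

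MXD3, which unlike its relatives is known for its expression in dividing cells, was called in 3 comparisons. Each call was downward, and 1 of them was the difference between the responses with and without Cre. It stood at 11.8, 13.6 and 10.9 CPM with DMSO and at 4.72, 10.8 and 1.42 CPM after 6 days of IAA, a fall of -1.12 ± 0.40 (0.0310). All 3 lay below every control, but 1 library, clone 9, was far lower than the others. Without it the change was -0.67 (0.113), and without clone 7 it was -1.96 (0.000215). The call was also lost without clone 1 of IAA (0.0844), without clone 1 or 7 of DMSO (0.0568 and 0.0911), without the hour-titled libraries (0.0517) and on the compared groups alone (0.137). At 2 and 4 days of IAA the libraries held 4.35 to 8.77 and 7.34 to 7.77 CPM, also below every control, with changes of -0.75 ± 0.40 (0.225) and -0.67 ± 0.40 (0.212). The inhibitor alone at 4 days gave 4.46, 5.23 and 10.1 CPM, below every DMSO library too, and its change of -0.88 ± 0.40 (0.204) passed without the count filter (0.0272, in a range of 0.0272 to 0.465). With Cre, 4OHT lowered MXD3 from 15.7 and 15.4 to 8.80 and 9.73 CPM, by -0.75 ± 0.12 (0.000134), and without Cre the groups overlapped. The responses differed by -0.71 ± 0.16 (0.00337), called in all 13 alternatives. In HEK293 11.5, 11.2 and 11.02 CPM became 6.70, 9.11 and 5.47 CPM (-0.66 ± 0.23, adjusted p = 0.0657). With the clone block this was -0.69 and passed (0.0230, in a range of 0.0114 to 0.193). MXD3 is thin, with as few as 45 counts in a degron library. Its standard errors in the degron fit were larger than those of every other tested member, and the cause was not tested.

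MXI1 and MNT, the repressors with the broadest expression, were called in 2 and 4 of the 18 comparisons. MXI1 stood at 107, 72.0 and 82.2 CPM with DMSO and at 116, 104 and 107 CPM after 6 days of IAA (0.32 ± 0.14, adjusted p = 0.0756). This passed with the clone block (0.0159, in a range of 0.0117 to 0.342) and without clone 1 of DMSO (0.50, 0.0117), the highest of the controls. The 4-day difference likewise passed without that library alone (0.42, 0.0357). At 4 against 2 days of IAA the difference was 0.37 ± 0.14 (0.109), which passed only with that block (0.0229, in a range of 0.0229 to 0.331), and after 2 days of inhibitor (-0.32 ± 0.16, 0.133) it passed with the block (0.0418) and by limma on TPM (-1.06, 7.46e-06), in a range up to 0.548. Against 1-day DMSO the inhibitor's value took the other sign (0.52 ± 0.18, 0.100) and was not called. With Cre it rose from 56.7 and 61.9 to 70.8 and 70.0 CPM, by 0.25 ± 0.07 (0.00756), a call lost by limma on TPM (0.07, 0.501) and without the first library of either arm (0.0974 and 0.0512). The difference from the cells without Cre, 0.34 ± 0.10 (0.0127), took the other sign on the TPM scale (-0.014, 0.940) and was lost without the first Cre ethanol library (0.0676) or the second 4OHT library without Cre (0.0546).

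MNT, which pairs with both MAX and MLX, stood at 41.9, 42.7 and 37.6 CPM with DMSO and at 66.1, 54.4 and 59.0 CPM after 2 days of IAA, without overlap (0.56 ± 0.20, adjusted p = 0.0567). That difference passed in 4 of 13 alternatives, namely without the count filter (0.00449), by DESeq2 (0.0342), on the compared groups alone (0.00192) and without clone 7 of IAA (0.0457), in a range up to 0.147. At 4 days clones 1, 7 and 9 held 83.1, 52.8 and 38.9 CPM, a rise of 0.52 ± 0.20 at the threshold (0.0496) that overlapped the controls. Without clone 1 it was 0.19 (0.471). It was also lost with the clone block (0.0645), with RLE factors (0.0539), by limma (0.05, 0.943), on the compared groups alone (0.146), without the hour-titled libraries (0.0723), and without any DMSO library (0.0828 to 0.114). From 4 to 6 days, where the libraries held 31.5, 51.0 and 27.6 CPM, MNT fell by -0.68 ± 0.20 (0.0282). The value was -0.31 without clone 1 at 4 days (0.249), and the call was lost without clone 1 or 9 at 6 days (0.0926 and 0.121), by limma (0.333), on those 6 libraries alone (0.434) and without the hour-titled libraries (0.0588). With Cre MNT stood at 41.7 and 39.2 CPM with ethanol and at 44.3 and 46.6 CPM with 4OHT (0.17 ± 0.07, 0.0626), and without Cre it fell from 55.4 and 53.6 to 45.2 and 48.3 CPM (-0.22 ± 0.07, 0.0478). That call was lost without any 1 of its 4 libraries (0.0534 to 0.258), by DESeq2 (0.139), by limma (0.387) and on those libraries alone (0.0829). The responses differed by 0.39 ± 0.10 (0.00633), a call that limma on TPM did not make (0.18, 0.276). In HEK293 25.1, 19.5 and 21.7 CPM became 16.9, 18.2 and 11.5 CPM, lower in each clone (-0.50 ± 0.20, adjusted p = 0.0967), which passed with the clone block (0.0348, in a range of 0.0348 to 0.312). MLX ranged from 54.2 to 93.0 CPM over all 46 libraries and was called in none of the 18 comparisons.

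The ratio of MYC to its 5 repressors put these changes on 1 scale. It was taken per library as MYC TPM over the summed TPM of MXD1, MXD3, MXD4, MXI1 and MNT, as a description with no test. In the 2-day DMSO libraries it was 1.83, 2.60 and 2.20, and after IAA it was 0.868, 0.947 and 0.868 at 2 days, 1.37, 1.18 and 1.28 at 4 days, and 1.37, 1.49 and 1.41 at 6 days. No IAA library reached the lowest control. At 1 day it was 4.33 and 4.71 with DMSO and 1.83 and 2.18 with IAA. With the inhibitor alone it was 3.44, 3.27 and 3.60 at 4 days, and 1.89, 2.11 and 2.04 with IAA as well. At 2 days it was 3.25 and 3.42 with the inhibitor alone, and 1.96 and 1.76 with IAA as well. In MAVS-/- clones 1, 13 and 15 it was 1.35, 2.25 and 1.74 with DMSO and 0.433, 1.52 and 0.561 with IAA, so each clone was lower and the groups overlapped. With Cre it was 2.65 and 2.56 with ethanol and 2.61 and 2.79 with 4OHT. Without Cre it was 3.03 and 2.96 with ethanol and 2.72 and 2.72 with 4OHT. In HEK293 it lay below 0.5 in every library, at 0.334, 0.221 and 0.446 with doxycycline and at 0.425, 0.473 and 0.345 without it. MXI1 made up 36.0% to 77.7% of the repressors' summed TPM in each library, so the ratio follows MYC and MXI1 far more than MXD1. In the other degron libraries 1 CPM of MXI1 or MXD3 was worth more TPM than in the hour-titled ones, so ratios should not be compared across these sets. The worth of 1 CPM also varied within a set. For MXD3 it ran from 0.899 to 2.81 TPM at 4 days of IAA, and for MXD4 from 0.311 to 0.75 at 6 days.

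A list of 53 genes reported as activated by MYC was followed beside the members. At 1 day of IAA 1 of the 53 fell and 0 rose (background 0.0689% lower and 0.117% higher), with a list median of -0.40 against 0.01 for all genes, and CAD, the enzyme that starts pyrimidine synthesis, was the one that fell (-0.96 ± 0.14, adjusted p = 0.00122). In a fit on those 4 libraries alone, 43 fell. At 2 days 45 fell and 0 rose (median -0.72, against 9.94% of all genes lower and 9.12% higher). CAD fell by -1.68 ± 0.12 and TMEM97, a sterol-binding membrane protein, by -1.40 ± 0.19. At 4 days 32 fell and 1 rose (median -0.58, background 14.9% and 17.9%), with TERT, the telomerase catalytic subunit, down by -2.74 ± 0.79 and RRP12, a ribosome assembly factor, up by 0.68 ± 0.16. At 6 days 13 fell and 4 rose (median -0.22, background 17.5% and 17.8%). From 4 to 6 days 19 rose and 0 fell (median 0.40, background 5.36% and 7.11%), led by the ribosome assembly factor RRP9 (0.85 ± 0.18) and the nucleotide hydrolase DCTPP1 (0.82 ± 0.19). This count was 12 without the hour-titled libraries and 0 in a fit on those 6 libraries alone.

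The list moved otherwise in the other settings. The inhibitor alone at 4 days lowered 2 and raised 0 (median -0.01, background 3.84% and 3.85%). At 2 days it raised 16 and lowered 1 against 2-day DMSO (background 20.8% and 13.6%), but raised 0 and lowered 4 against 1-day DMSO (3.63% called in either direction), and limma on TPM gave 5 higher and 23 lower. IAA on top of the inhibitor lowered 10 at 4 days (median -0.20, background 5.1%), led by the nucleolar methyltransferase FBL (-0.89 ± 0.18) and TMEM97 (-0.76 ± 0.18). The effect of IAA at 4 days differed upward with the inhibitor against without it for 7 of the 53 and downward for 0 (median difference 0.37, background 2.19% upward). The upward count was 3 in a fit on the compared groups alone and 16 by limma on TPM. In the MAVS-/- clones IAA lowered 10 and raised 0 (median -0.26, background 3.15%), led by the mitochondrial chaperones HSPD1 (-0.88 ± 0.16) and HSPE1 (-0.84 ± 0.17), and 16 with the clone block. With Cre, 21 fell and 16 rose (median -0.04, background 27.5% and 26.4%), among them TERT (-2.43 ± 0.24) and TMEM97 (-1.32 ± 0.10) downward and RRP12 (0.86 ± 0.06) and EXOSC5, an RNA exosome subunit (0.75 ± 0.13), upward. Without Cre 10 fell and 0 rose (background 6.44% and 7.26%). In HEK293 25 rose and 1 fell (median 0.49, background 11.1% and 10.9%), led by the ribosome assembly factors IMP4 (1.23 ± 0.14) and RRP12 (1.22 ± 0.12), and the one that fell was TMEM97 (-0.73 ± 0.13). MYC RNA was called in HEK293 in no alternative, and rose with Cre, where the list split.

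**Figure D4:**
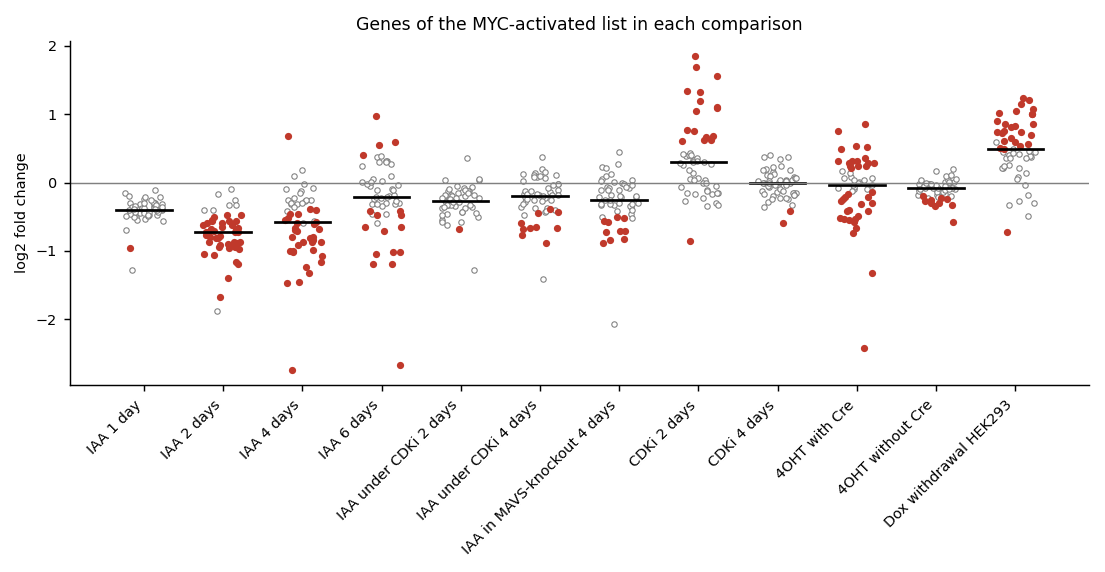
Log2 fold change of each of the 53 genes reported as MYC-activated (points, red at an edgeR adjusted p under 0.05) in each comparison, with a black line at the list median. The points lie mostly below 0 at 2 and 4 days of IAA, on both sides of 0 after 4OHT with Cre, and mostly above 0 in HEK293.

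Of 9 genes reported as repressed by MYC, 4 rose at 2 days of IAA, 5 at 4 days and 4 at 6 days, with 0, 1 and 2 falling (medians 0.53, 1.23 and 0.53). Of all genes 9.12%, 17.9% and 17.8% rose and 9.94%, 14.9% and 17.5% fell at these days. CDKN1A, the CDK inhibitor p21 and also a p53 target, rose by 0.72 ± 0.20, 1.23 ± 0.20 and 1.59 ± 0.20 at 2, 4 and 6 days and by 1.73 ± 0.06 with Cre. In HEK293 it was not called (-0.17 ± 0.17, adjusted p = 0.537). GADD45A, a stress-induced gene that is also a p53 target, rose by 0.75 ± 0.15, 1.64 ± 0.15 and 1.98 ± 0.15 with IAA, by 0.30 ± 0.09 with Cre and by 1.16 ± 0.20 in HEK293. CDKN2B, the CDK4/6 inhibitor p15, rose by 1.17 ± 0.21, 1.55 ± 0.21 and 0.70 ± 0.21. CDKN2C, the related inhibitor p18, is also an E2F target and fell by -1.12 ± 0.36 at 4 days and by -3.04 ± 0.23 with Cre. NDRG2 also fell at 6 days (-1.16 ± 0.19). With Cre 3 of the 9 rose and 5 fell (median -0.56, background 26.4% and 27.5%), and without Cre 0 rose and 4 fell (7.26% and 6.44%). In HEK293 3 rose and 0 fell (median 0.37, background 11.1% and 10.9%), and 4 and 2 with the clone block, led by GADD45B (2.70 ± 0.35).

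Of 10 ubiquitin ligases, deubiquitinases and stabilisers that act on the MYC protein, 5, 5 and 4 fell at 2, 4 and 6 days of IAA and 0, 1 and 1 rose, and 6 fell and 0 rose with Cre. The medians were -0.31, -0.28, -0.27 and -0.37, and the shares of all genes lower were 9.94%, 14.9%, 17.5% and 27.5%. AURKA, a mitotic kinase that protects MYC proteins from degradation, fell at 2 days (adjusted p = 8.03e-05), by -2.06 ± 0.17 and -1.95 ± 0.17 at 4 and 6 days, and by -2.01 ± 0.08 with Cre. SKP2, a ubiquitin ligase subunit of S and G2 phase, fell by -1.16 ± 0.15, -1.77 ± 0.16 and -1.69 ± 0.15 at these days, and by -0.96 ± 0.07 with Cre. FBXW7, the ligase subunit that marks MYC for degradation, rose by 0.55 ± 0.18 at 4 days (0.0202). In HEK293 2 rose, FBXW7 (0.42 ± 0.13, 0.0468) and the nucleolar deubiquitinase USP36 (0.64 ± 0.12, 0.00658), and 0 fell (background 11.1% and 10.9%). Both AURKA and SKP2 are cell cycle genes, and AURKA also fell with the inhibitor alone at 4 days (-0.69 ± 0.16, 0.00809). Of 15 cofactors, 6, 9 and 9 fell at 2, 4 and 6 days and 2, 4 and 2 rose, and with Cre 9 fell and 2 rose. The medians were -0.19, -0.42, -0.38 and -0.20, against the same shares of all genes lower and 9.12%, 17.9%, 17.8% and 26.4% higher. At 6 days the fall was led by HDAC1, the deacetylase that MXD proteins use (-1.07 ± 0.09). At 2 days it was led by RUVBL1 (-0.92 ± 0.14) and KAT2A (-0.91 ± 0.12), subunits of MYC coactivator complexes. In HEK293 2 of the 15 rose, 4 with the clone block, and 0 fell, against 11.1% and 10.9% of all genes.

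Of MYCL, MGA, MLXIP and MLXIPL, the other proteins that pair with MAX or MLX, 0 were called by edgeR in any IAA comparison against DMSO, with 1 at an unadjusted p under 0.05 at 2, 4 and 6 days each, 0 by DESeq2 at those days, and 1, 0 and 1 by limma. MYCL, the third MYC paralogue, fell with Cre (-1.29 ± 0.12), and MLXIP, the main partner of MLX outside the liver, rose with Cre (0.27 ± 0.05) and in HEK293 (0.56 ± 0.14, 0.0191). MLXIPL fell after 2 days of inhibitor against 2-day DMSO (-0.94 ± 0.26, 0.00545) and rose with 4OHT without Cre (0.37 ± 0.08, 0.00697). The responses to 4OHT with and without Cre differed for MYCL (-1.14 ± 0.16), MLXIP (0.28 ± 0.07) and MLXIPL (-0.45 ± 0.11), 3 of the 4 (41.2% of all genes). Of 6 reported targets of MLX dimers, 5 were tested in the degron cells, and 3, 2 and 2 fell and 0, 1 and 1 rose at 2, 4 and 6 days (background 9.94%, 14.9% and 17.5% lower and 9.12%, 17.9% and 17.8% higher). TXNIP is among the 5 but had 0 counts in every library of these comparisons. ARRDC4, an arrestin-like protein induced by glucose, rose by 2.59 ± 0.29 at 4 days, 3.20 ± 0.30 at 6 days and 1.497 ± 0.09 with Cre. It also rose with 4OHT without Cre (0.62 ± 0.09, 0.000949), where the responses differed by 0.88 ± 0.13, and with the inhibitor alone at 4 days (1.45 ± 0.29, 0.00219). The lipid synthesis enzymes FASN (-0.47 ± 0.13, -0.80 ± 0.13 and -1.40 ± 0.14 at 2, 4 and 6 days) and ACACA (-0.43 ± 0.09, -0.40 ± 0.09 and -0.76 ± 0.09) fell. In HEK293 TXNIP, a thioredoxin inhibitor, rose by 2.09 ± 0.18 and the transcription factor KLF10 by 1.90 ± 0.11. Of 6 transcripts near MYC, 3 were tested in HCT116. PVT1, the long noncoding gene beside MYC, differed from it in its changes against DMSO with IAA. Its change was -0.35 ± 0.21 at 1 day (adjusted p = 0.843) and -0.18 ± 0.17 at 2 days (0.555), and MYC fell at 2 days. PVT1 rose by 0.63 ± 0.17 and 0.73 ± 0.17 at 4 and 6 days, where MYC lay below DMSO. From 2 to 4 days of IAA, PVT1 rose by 0.81 ± 0.17 (0.00324), and MYC also lay higher (0.68 ± 0.24, 0.0744). It rose with MYC on the inhibitor at 4 days (0.82 ± 0.17) and with Cre (0.98 ± 0.07). CASC19, another noncoding gene of the MYC region, moved in both directions. It fell at 2 days of IAA (-0.99 ± 0.26), in the MAVS-/- clones (-1.60 ± 0.28) and with Cre (-0.76 ± 0.10). After 2 days of inhibitor it was lower than in 2-day DMSO (-0.74 ± 0.29), at the threshold (edgeR adjusted p = 0.0494). That comparison sets hour-titled libraries against others. CASC19 rose with the inhibitor at 4 days (1.00 ± 0.25) and with 4OHT without Cre (0.30 ± 0.09). Of 10 Wnt target genes, 9 were tested in the degron cells, and 1, 1 and 2 rose and 0, 0 and 2 fell at 2, 4 and 6 days, against the same shares of all genes. LGR5 is among the 9 but had 0 counts in every library of these comparisons, as had LEF1 at 2 and 6 days. TCF7, a transcription factor of the pathway, rose at each of these days (0.62 ± 0.10, 1.17 ± 0.10 and 0.78 ± 0.10). AXIN2 and NKD1, negative regulators of the pathway, fell at 6 days (-0.76 ± 0.25 and -1.13 ± 0.31) and with Cre (-0.53 ± 0.11 and -1.13 ± 0.09), where 5 of 7 tested fell and 2 rose (27.5% and 26.4% of all genes).

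The genes most like each member were taken as those with the highest Pearson correlation of mean log2 CPM over the 12 degron groups, among 11545 genes. These groups share clones and controls, and mix hour-titled libraries and MAVS-/- clones with the others, so the values are descriptions. Between 1-day and 2-day DMSO alone, MAX, MXD1, MXD4 and MXI1 already differed. Between MAVS-/- DMSO and 2-day DMSO, MXD4, MXI1 and MLX did. How far the correlations follow these differences was not tested. MYC was closest to SLC16A9 (0.975), LARS1 (0.956), AMER1 (0.946) and LRPPRC (0.941). MAX was closest to RCL1 (0.963), which is itself on the MYC-activated list, and MXD1 to MFSD6 (0.976) and IDS (0.976). MXD3 was closest to CEP131 (0.959), MXD4 to SELENOP (0.958), MXI1, among genes with a symbol, to LMBRD1 (0.961), MNT to SNX25 (0.927) and MLX to BRD9 (0.945). Among the members themselves, MXD1 ran against MXD3 (-0.81) and with MXI1 (0.74), MXD4 ran against MLX (-0.76), and MYC and MAX were only loosely alike (0.57).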

How the data were processed

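RNA was measured in 46 bulk libraries in 18 groups. HCT116 RNA was poly-A selected and HEK293 RNA was ribosome-depleted, per the labels' protocols. The authors deposited estimated counts per gene, which were rounded to whole numbers here, and TPM. Per the submitters' processing notes, Salmon 1.10.2, kallisto 0.50.0, DESeq2 and GRCh38 were used, with no role stated for any of them.

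Counts were fitted with edgeR 4.0.16 (R 4.3.3; TMM factors, filterByExpr by group, quasi-likelihood test, Benjamini-Hochberg over all genes, threshold 0.05) in 3 fits: degron HCT116 (32 libraries, 18877 genes), Ku86Flox/- HCT116 (8 libraries, 16726 genes) and HEK293 (6 libraries, 15549 genes). Each fit used all of its groups, giving 20, 4 and 4 residual degrees of freedom. The biological coefficient of variation was 21.7%, 4.63% and 20.8%. CPM compares 1 gene across libraries. TPM compares genes, and limma 3.58.1 used log2(TPM + 1), which understates changes of low genes. No 2 of the 38 replicate pairs agreed within counting noise. Alternatives were RLE factors, no count filter, DESeq2 1.42.0, limma on TPM, the compared groups alone, a replicate block and each library left out. The 1-day DMSO control for the 2-day inhibitor and the degron fit without the 8 hour-titled libraries were added after seeing the data. The scripts were tested on simulated data.

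Clones 1, 7 and 9, clones 1, 13 and 15, and the 3 HEK293 clones recur in both arms, so the clone pairs libraries. Libraries of 1 clone were compared by how they deviated from their group's mean, and these correlations ran from 0.245 to 0.467 in HEK293, 0.0621 to 0.273 in the MAVS-/- clones and -0.113 to 0.182 in the other degron comparisons. The Ku86Flox/- libraries share only a replicate number.

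The members and lists were chosen with earlier results of these data known. All members are named, and any gene of lists up to 10 genes could be. From the MYC-activated list and the cofactors, the 2 genes with the largest called change in each direction per comparison could be named, with their values elsewhere. Marker lists (colon epithelium, HEK293, blood and stroma) summed to 1496 to 2754, 5.11 to 9.33 and 8.09 to 64.9 TPM over degron group means, 2102 to 3221, 8.54 to 14.5 and 26.2 to 38.7 in the Ku86Flox/- groups, and 223 to 359, 110 to 119 and 39.5 to 62.5 in HEK293. The number following Ku in the HEK293 genotype labels varies between samples, and the treatment protocol's Ku70 was used. Protein sequences were not used here. Some of the genes most like a member are not reported here.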

Additional observations from a re-analysis of the deposited data

Results flagged for a closer look

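Of the 8 tested members, 7 responded to 4OHT differently with and without Cre, by edgeR's test of the difference itself (2 libraries per group). The log2 differences, with Cre against without, were 1.73 for MXD1, 0.98 for MXD4, 0.62 for MAX, 0.55 for MYC, 0.39 for MNT, 0.34 for MXI1 and -0.71 for MXD3, against 41.2% of all genes called. For MXI1 the value was -0.014 by limma on TPM. All 7 share the same 8 libraries.

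MYC went in opposite directions in HCT116 cells treated for 4 days to remove Ku80 by different routes. The 4 days are the time of treatment, and how long Ku80 protein was absent was not measured here. The 3 MAVS-proficient degron libraries given IAA alone for 4 days lay below all 3 of their DMSO controls (-0.52, not called at an edgeR adjusted p of 0.0926), and both Cre libraries with 4OHT lay above both with ethanol (0.36, called). MNT lay higher in both Cre libraries with 4OHT (0.17) and lower in all HEK293 libraries without doxycycline (-0.50). Neither difference was tested, since the cells were fitted separately.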

How the results depend on the processing

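Of 1872 comparisons of a member's value with an alternative, 1671 kept their direction and side of the threshold, 78 lost the call, 57 gained it and 2 called values changed sign. These were MAX after 2 days of inhibitor with 1-day DMSO as control (-0.11) and the Cre difference of MXI1 by limma (-0.014). In 64 more the sign differed with neither value called.

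Moves of the number of members called, of 8, by more than 1.5 times or from 0 were these. For IAA at 1 day (0 in the main fit) it was 1 without the count filter, 1 by DESeq2, 1 with the replicate block and 2 on the compared groups alone. At 2 days (3) it was 6 on the compared groups alone, and at 6 days (3) it was 5 with the replicate block. At 4 against 2 days (0) it was 1 without the filter, by DESeq2, by limma and on the compared groups, and 2 with the block. At 6 against 4 days (1) it was 2 by DESeq2 and with the block, and 0 by limma, on the compared groups and without the hour-titled libraries. For the inhibitor it was 4 by limma and 1 with 1-day DMSO at 2 days (2), and 1 by limma at 4 days (3). For IAA with the inhibitor it was 1 without the filter, with the block and on the compared groups at 2 days (0), and 2 in each of these at 4 days (1). For the MAVS-/- clones (2) it was 1 by limma, 0 on the compared groups and 1 without the hour-titled libraries, and for their difference from MAVS-proficient clones (0) it was 1 without the filter and with the block. For 4OHT without Cre (3) it was 1 by limma and on the compared groups. In HEK293 (2) it was 1 with RLE factors, 1 without the filter and 4 with the block. Smaller moves were 3 to 2 for IAA at 4 days (RLE factors, limma, the compared groups alone and without the hour-titled libraries), for IAA at 6 days (limma and without those libraries) and for the inhibitor at 4 days (without those libraries), 3 to 4 without the filter at each of these and at 2 days of IAA, where DESeq2 also gave 4, 3 to 2 for 4OHT without Cre (DESeq2 and block), 2 to 3 for the inhibitor at 2 days (block) and in HEK293 (DESeq2 and limma), 6 to 7 with Cre (RLE factors and the compared groups alone) and 7 to 5 for the Cre difference (limma). The cause of these moves was not tested. The clone block changed no other call of a member beyond those given in the results. In the Ku86Flox/- cells the block by replicate number, which pairs nothing in the design, removed the call of MNT without Cre (0.0598).

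With each library left out in turn, the count for IAA ran from 0 to 0 (1 day), 3 to 4 (2 days), 1 to 3 (4 days), 2 to 3 (6 days), 0 to 1 (4 against 2 days) and 0 to 3 (6 against 4 days). It ran from 1 to 2 and 2 to 3 for the inhibitor at 2 and 4 days, 0 to 0 and 0 to 1 for IAA with it, and 0 to 0 for both interactions with it. It ran from 1 to 2 in the MAVS-/- clones, 0 to 1 for their difference, 5 to 6 with Cre, 0 to 2 without Cre, 6 to 7 for the Cre difference and 1 to 4 in HEK293. Where an arm was left with 1 library, its spread was taken from the remaining groups of the fit, an assumption. Depth limits MXD3, at 45 to 320 counts per degron library, and MYCN most.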
